A study of Mus musculus with 300 samples.

Results

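The integrins, laminins and other basement membrane genes of adult mouse spermatogonia are described here from single-cell RNA-seq. They were taken by name from the expression table: every row for an integrin alpha or beta chain, a laminin chain, a type IV collagen chain, a nidogen, perlecan (Hspg2) or agrin (Agrn). The rule gave 51 of 23354 rows, of which 47 are chains of these proteins and 4 are other proteins whose names share the same letters. It used no expression value.

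The cells were 300 ID4-EGFP+ spermatogonia from the testes of untreated adult mice under normal husbandry, all carrying the reporter, in which EGFP follows the Id4 locus. Each preparation pooled at least 2 mice, and its cells were dissociated with enzymes, enriched on Percoll, sorted for bright CD9 and for EGFP, and captured on Fluidigm C1 chips. Each cell belongs to a quartile of EGFP brightness on the chip, with 72 cells in Q4 (dimmest), 71 in Q3, 78 in Q2 and 79 in Q1 (brightest). The study names 4 replicate preparations, and a number from 1 to 4 in the sample titles was read as the preparation, which the labels do not state. By this reading they held 67, 82, 71 and 80 cells and are the replicates, and every n = 4 depends on it. All quartiles thus hold reporter-positive, CD9-bright cells, and no unsorted or reporter-negative cells serve as a control.

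A basement membrane is a thin sheet of laminin trimers and a type IV collagen network. Nidogens bind the laminin gamma-1 chain and type IV collagen and so connect both networks, and the heparan sulfate proteoglycans perlecan and agrin are woven in. Integrins are heterodimers of an alpha and a beta chain that hold cells to this sheet and signal from it. In the seminiferous tubule, spermatogonia lie against a basement membrane made by Sertoli and peritubular myoid cells, and the integrins alpha-6 and beta-1 are widely used surface markers to enrich for spermatogonial stem cells.

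The promoters of Nid1 and Itgb5 are shown because both genes rose with EGFP brightness (described further on). Each run is a 190-base stretch upstream of the gene's start in RefSeq (GRCm38.p6), and it ends before any annotated exon. It does not reach that start, and the bases between were not scanned. Nid2 has no entry in the promoter table used, which matched 34 of the 51 members. Capitals mark E-boxes (CANNTG on either strand), the motif of the basic helix-loop-helix factors whose partners ID proteins hold back.
Nid1, chr13:13437352-13437541, plus strand: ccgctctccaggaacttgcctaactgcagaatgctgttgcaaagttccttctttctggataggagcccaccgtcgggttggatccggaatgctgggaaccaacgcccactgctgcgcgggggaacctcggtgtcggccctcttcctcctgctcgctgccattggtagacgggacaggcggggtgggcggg
Itgb5, chr16:33829415-33829604, plus strand: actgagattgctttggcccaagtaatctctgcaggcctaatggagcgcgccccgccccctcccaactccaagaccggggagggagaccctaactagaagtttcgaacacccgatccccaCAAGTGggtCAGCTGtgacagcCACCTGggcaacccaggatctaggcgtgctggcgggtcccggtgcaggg
The Itgb5 window held 3 E-boxes and the Nid1 window 0. Of 32851 promoter windows of the same length, 57.3% held at least 1. An ETS core (CCGGAAG, or CTTCCGG on the other strand) lay in neither window and in 3.60% of all windows, and no motif overlapped another. These matches are descriptions of letters, not of binding.

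The values are FPKM, read fragments per unit of transcript length and of library size, so levels can be set side by side between genes. A cell had on average 5541 genes at 1 FPKM or more, with a range of 2934 to 7817. Preparation 1 averaged 4368 such genes per cell and the other preparations 5572 to 6216, while Q1 averaged 5739 and Q4 5373. Raw read depth is not known from these values, and an FPKM of 0 means only that a gene is listed at 0. The germ cell markers Dazl and Uchl1 were detected at 1 FPKM in 100% of cells and the other 6 listed in 58 to 99.7%, lowest for Gfra1 and Lin28a (67.3%). No cell carried the Sertoli, endothelial, Leydig or fibroblast markers (at least 3, and at least 50%, of a list at 5 FPKM). In 8 cells the leukocyte markers did so, and in 1 cell the peritubular myoid markers. These 9 cells fell 3 in Q4, 2 in Q3, 3 in Q2 and 1 in Q1. All 300 cells, these 9 included, met the same rule for the germ cell markers. Single leukocyte markers were detected at 1 FPKM in 3 to 19% of all cells, as for Fcer1g (19%), Cd68 (15%) and Lyz2 (12%).

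A few members were detected in most of the cells and many in almost none. Of the 51 members, 21 (41.2%) reached 1 FPKM in at least 30 cells, the filter for testing, against 44.6% of all rows. Itgb1 (integrin beta-1) was the most widely detected, in 236 cells (78.7%), followed by Lamb1 (laminin beta-1) in 197 cells (65.7%). Itga6 (integrin alpha-6) was detected in 167 cells (55.7%), Nid2 in 159 (53%) and Nid1 in 127 (42.3%). At the other end 14 members were detected in fewer than 5 cells. Of these, Itga10, Itgax and Itgb6 reached 1 FPKM in 0 of 300 cells, which allows a share of up to 1.0% (counting error only). A cell held a median of 6 of the 47 chains (range 0 to 16), with a median of 5 in preparation 1 and 6 to 7 in the others.

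**Figure D1:**
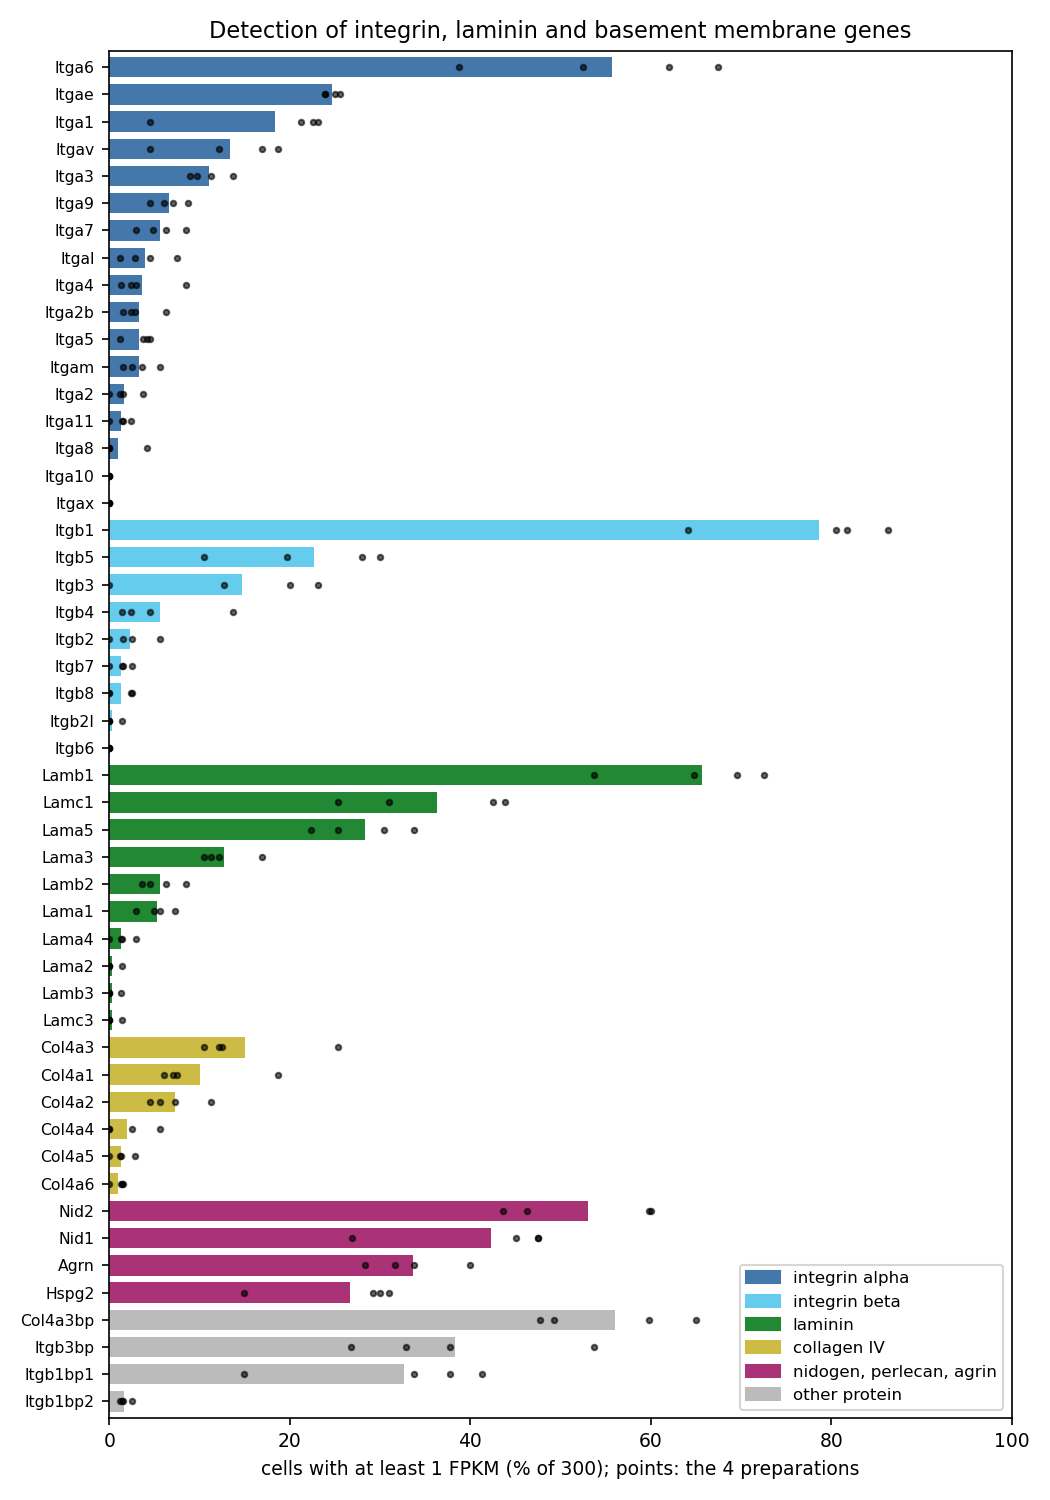
Share of the 300 cells with at least 1 FPKM for the members named in the text (bars), grouped by protein class, with the share within each of the 4 preparations as points. Itgb1, Lamb1, Itga6 and Nid2 exceed 50%, as does Col4a3bp, which is no collagen, and each of the other members lies under 50%.

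Quartiles were compared on the mean over cells of log2(FPKM + 1) in each preparation and quartile, 16 means of 15 to 22 cells each. Values called a level below are such means, and a difference between them comes out too small for genes of low FPKM. limma was fitted to all 10411 genes past the filter with the preparation as a block, and a gene is said to rise or fall where its Benjamini-Hochberg adjusted p was under 0.05. Of the 21 members tested, 3 were higher in Q1 than in Q4 (14.3%) and 0 were lower: Nid1, Nid2 and Itgb5. Over all genes tested, 3.25% passed, 2.72% as higher and 0.528% as lower. At an unadjusted p under 0.05, 9 members passed, in either direction. The share of all genes at that unadjusted threshold is not given here, so this count cannot be read as an excess. The same 3 members rose along the 4 quartiles and 0 fell, against 4.51% of all genes, 3.77% rising and 0.74% falling. At an unadjusted p under 0.05, 8 passed in this trend, again without a share of all genes to set beside it. The median difference of the 21 members was 0.01, against 0.10 for all genes tested. Of their differences 12 were positive and 9 negative, and of all genes 59.6% were positive. The filter lets a gene in through the quartile in which it is high, so these counts cover the members that passed it, not all 51.

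**Figure D2:**
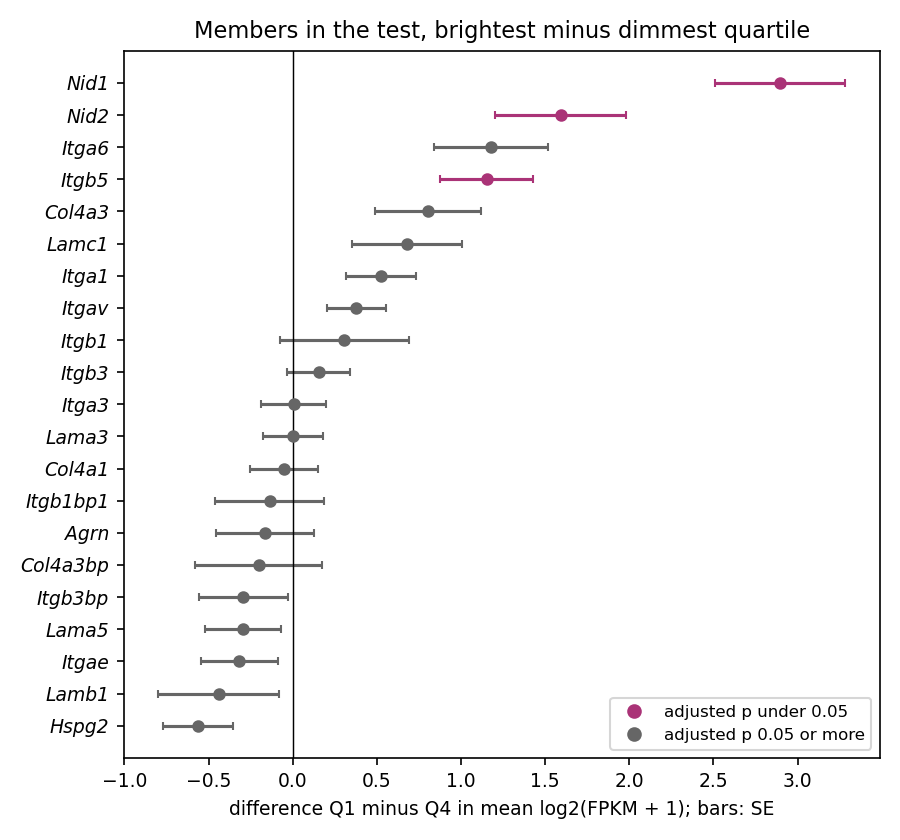
Difference in mean log2(FPKM + 1) between Q1 and Q4 with its standard error (limma, 4 preparations) for the 21 members tested, sorted by size. Nid1, Nid2 and Itgb5 passed the adjusted threshold; Itga6, at 1.18, and the other 17 did not.

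Nid1 had the largest difference of the 21 members tested. Its product, nidogen-1, bridges laminin and type IV collagen. In preparations 1 to 4 its level was 2.73, 4.16, 4.34 and 3.31 in Q1, against 0.59, 1.62, 0.37 and 0.37 in Q4. Every Q1 value lay above every Q4 value. Q3 held 0.78, 0.79, 0.88 and 1.96, and Q2 held 1.39, 2.24, 2.79 and 2.91. In preparations 1, 3 and 4 no quartile was below the next dimmer one, while in preparation 2 Q3 (0.79) was below Q4 (1.62). The means were 3.63 ± 0.75 in Q1 and 0.74 ± 0.60 in Q4 (SD, n = 4). The difference was 2.90 (SE 0.39, limma adjusted p = 5.99e-05), higher in 4 of 4 preparations. The slope was 0.99 per quartile (SE 0.13, limma adjusted p = 1.5e-05), and both calls held in all 13 alternatives tried.

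The share of cells that held Nid1 transcripts followed the same order. Cells with 1 FPKM or more made up 15.8 ± 16.4% in Q4, 26 ± 11.9% in Q3, 52.3 ± 12% in Q2 and 68.5 ± 18.5% in Q1 (SD, n = 4). By preparation the shares were 41.2, 81, 78.9 and 72.7% in Q1, against 11.1, 40, 6.67 and 5.26% in Q4, which leaves Q1 of preparation 1 only just above Q4 of preparation 2. Among the cells that held it, the median was 41.7 FPKM in the 12 cells of Q4, 16.4 in the 19 of Q3, 15.7 in the 41 of Q2 and 39.6 in the 55 of Q1. The few positive Q4 cells thus had a median as high as that of Q1. Averaged over all cells, Nid1 stood at 58.9 ± 25.2 FPKM in Q1 and 5.85 ± 4.12 FPKM in Q4 (SD, n = 4), and the highest single cell reached 700.0 FPKM. Nid1 lies on chromosome 13 from 13437551 to 13512269 (GRCm38, GENCODE vM21, plus strand). Of its 6943 exon bases, 143 (2.06%) overlap exons of Gm48682 on the other strand, which has no row in the table.

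Nid2, the gene of the related nidogen-2, was more widely detected and differed less. Its level was 2.51, 3.77, 2.31 and 3.32 in Q1, against 0.88, 2.12, 0.98 and 1.56 in Q4, and the groups did not overlap. Q3 spread widely, at 2.24, 1.50, 0.55 and 2.24, while Q2 held 2.33, 2.34, 3.07 and 2.87. The means were 2.98 ± 0.69 in Q1 and 1.39 ± 0.58 in Q4 (SD, n = 4). The difference was 1.59 (SE 0.39, limma adjusted p = 0.0204), higher in 4 of 4 preparations, and the slope was 0.58 per quartile (SE 0.12, limma adjusted p = 0.00501). The difference lost its call without preparation 1, 2 or 4 (limma adjusted p = 0.057, 0.0738 and 0.111) and without the block (limma adjusted p = 0.1). The slope kept its call in all 13 alternatives tried.

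Cells with Nid2 at 1 FPKM or more made up 40.4 ± 18.7% in Q4, 36.7 ± 13.9% in Q3, 62.7 ± 3.0% in Q2 and 67.6 ± 11.2% in Q1 (SD, n = 4). The step lay between Q3 and Q2, and Q4 and Q3 did not differ beyond their spread. The median in positive cells was 8.54 FPKM in Q4, 18.7 in Q3, 19.5 in Q2 and 23 in Q1. Nid2 lies on chromosome 14 from 19751265 to 19811787 (plus strand). Of its 5174 exon bases, 437 (8.45%) overlap exons of Rtraf on the other strand, and the library kit does not mark strand. Rtraf, listed as 2700060E02Rik, was detected in 99.7% of cells. It differed by 0.48 between Q1 and Q4 (SE 0.30, limma adjusted p = 0.456), and its part in the Nid2 values was not tested.

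**Figure D3:**
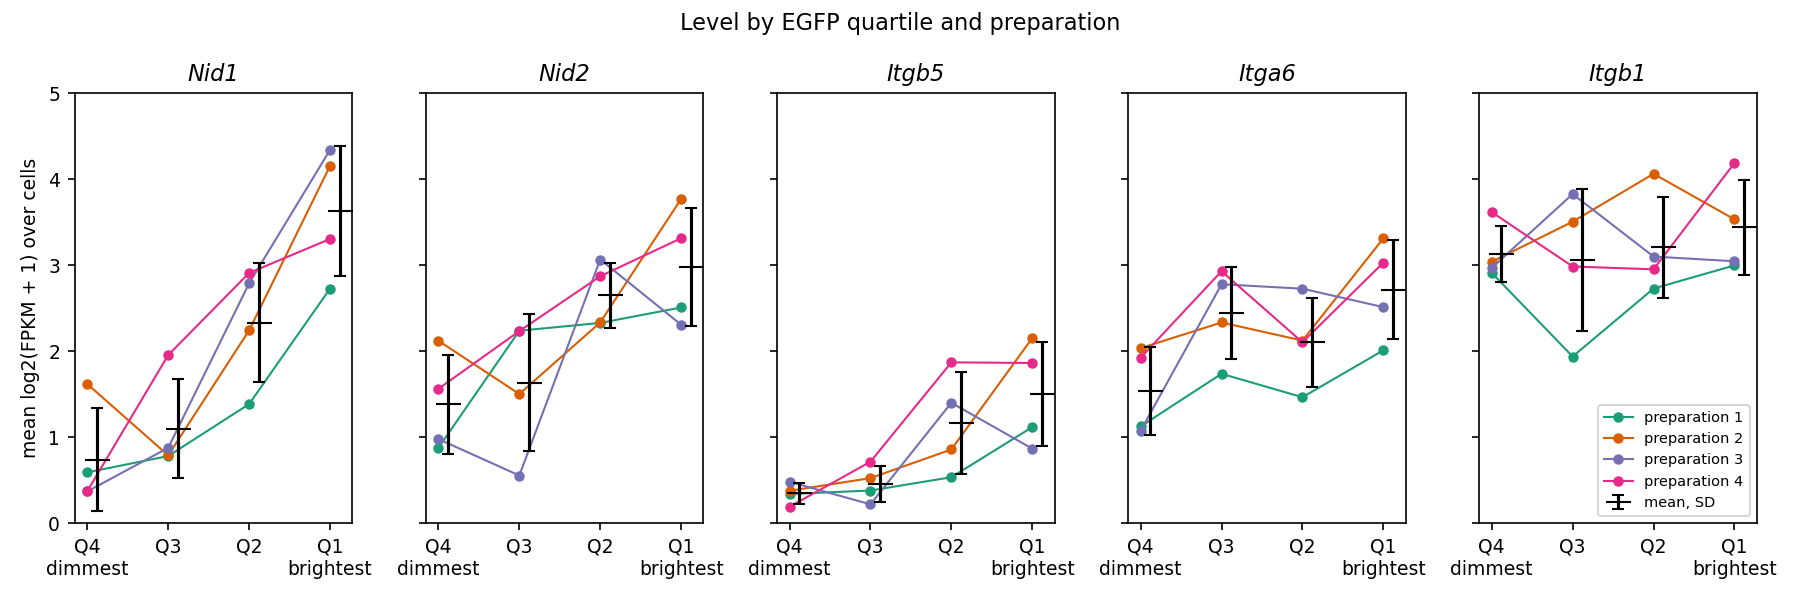
Mean log2(FPKM + 1) over cells of Nid1, Nid2, Itgb5, Itga6 and Itgb1 in each quartile from Q4 (dimmest) to Q1 (brightest), with 1 line per preparation and black marks for the mean and SD over the 4 preparations. Q1 lies above Q4 in every preparation in all 5 panels, by 2.14 to 3.97 for Nid1 and by 0.08 to 0.57 for Itgb1.

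Both nidogens often stood in the same cell. Of 300 cells, 85 held both at 1 FPKM or more, which is 66.9% of the Nid1 cells and 53.5% of the Nid2 cells. Cells with both made up 7.70 ± 8.59% in Q4, 11.1 ± 8.73% in Q3, 36.6 ± 16.2% in Q2 and 51.6 ± 19.7% in Q1 (SD, n = 4). Cells with neither made up 51.6 ± 23.6% in Q4, 48.4 ± 11.8% in Q3, 21.6 ± 3.40% in Q2 and 15.6 ± 7.90% in Q1 (SD, n = 4). Nid2 without Nid1 was the commoner single state in Q4, at 32.7 ± 13.7%, against 8.06 ± 8.48% for Nid1 without Nid2 (SD, n = 4). Within quartiles, Nid2 was found in 50% of the Nid1 cells and 40% of the other cells in Q4, in 42.1% and 34.6% in Q3, in 70.7% and 54.1% in Q2, and in 76.4% and 50% in Q1. The share was thus higher among Nid1 cells in each quartile. These are shares of cells that also share chips and depth, and no test was made of them.

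**Figure D4:**
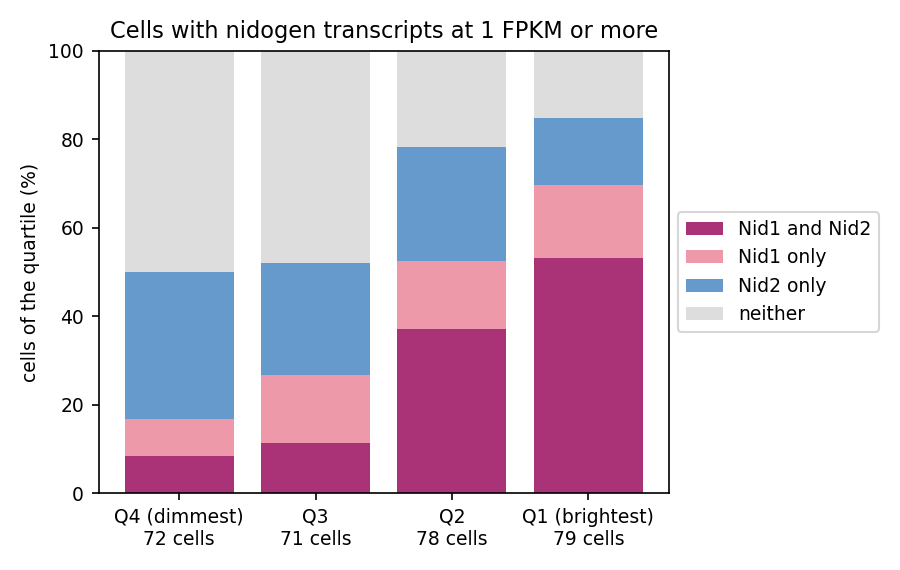
Share of the cells of each quartile, from Q4 (dimmest) to Q1 (brightest), with both nidogen genes, Nid1 only, Nid2 only or neither at 1 FPKM or more; cells of the 4 preparations are pooled. Cells with both number 6 of 72 in Q4, 8 of 71 in Q3, 29 of 78 in Q2 and 42 of 79 in Q1.

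Perlecan and agrin, the basement membrane proteoglycans, were detected at low levels. Hspg2 reached 1 FPKM in 80 cells (26.7%), with a mean of 1.10 FPKM over all cells. Its level was 0.22, 0.56, 0.66 and 0.31 in Q1, against 0.60, 0.89, 0.97 and 1.54 in Q4, so it was lower in Q1 in 4 of 4 preparations, with overlapping groups. The difference of -0.56 (SE 0.21, limma adjusted p = 0.152) did not pass, except after median centring of the 16 means (difference -0.74, limma adjusted p = 0.0476; range over 13 alternatives 0.0476 to 0.552), and it was -0.34 without preparation 4. The slope of -0.18 (SE 0.064, limma adjusted p = 0.105) passed after centring (0.0238) and with a pseudocount of 0.1 (0.0411). Centring also moved the median difference of all genes tested from 0.10 to -0.08. Agrn was detected in 101 cells (33.7%), with a mean of 2.85 FPKM and a difference of -0.17 (SE 0.29, limma adjusted p = 0.842). Its sign turned when genes per cell entered as a covariate (0.05), and in the fit without preparation 3 (0.09).

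The laminin trimers that hold cells to basement membranes need an alpha, a beta and a gamma chain. Of 11 laminin genes, 4 were tested: Lamb1, Lamc1, Lama5 and Lama3. Lamb1 had the highest level, 1.96, 2.65, 2.40 and 2.74 in Q1, against 1.88, 3.18, 3.44 and 3.02 in Q4. The groups overlapped, with a difference of -0.44 (SE 0.36, limma adjusted p = 0.597) and a slope of -0.12 (SE 0.11, limma adjusted p = 0.635). Lamc1, the gamma-1 chain that nidogens bind, was detected in 109 cells (36.3%) at a mean of 7.11 FPKM. Its level was 1.30, 1.39, 1.39 and 1.74 in Q1, against 0.58, 1.09, 0.35 and 1.07 in Q4. These groups did not overlap, but the difference of 0.68 (SE 0.33, limma adjusted p = 0.304) did not pass, and the Q3 and Q2 values spread from 0.44 to 2.04. Every Q1 value lay above every Q4 value in 4 of the 21 members, Lamc1, Nid1, Nid2 and Itgb5, as it did in 4.39% of all genes tested.

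The alpha chains were the scarcer part. Lama5, found in many adult basement membranes, was detected in 85 cells (28.3%) at a mean of 2.94 FPKM, and differed by -0.30 (limma adjusted p = 0.560). Lama3, a laminin alpha chain of epithelia, was detected in 38 cells (12.7%) at 1.63 FPKM and differed by 0.00 (SE 0.18, limma adjusted p = 0.999). Its sign turned under several alternatives. Lama1, a laminin alpha chain of the seminiferous tubule's basement membrane, was detected in 16 cells and Lamb2 in 17. Lama4 was found in 4 cells. Lama2, Lamb3 and Lamc3 were found in 1 cell each. The Lama2 cell (44.6 FPKM) and the Lamc3 cell (6.42 FPKM) were among the 9 cells with markers of other types.

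Few cells held a complete trimer. Lamb1 and Lamc1 stood together at 1 FPKM or more in 80 cells (26.7%). The trimer of Lama5, Lamb1 and Lamc1 was complete in 26 cells, with 6 in Q4, 8 in Q3, 7 in Q2 and 5 in Q1. That is 30.6% of the Lama5 cells. Lama1, Lamb1 and Lamc1 met in 2 cells, and Lama5, Lamb2 and Lamc1 in 2. With any value above 0 counted, the Lama5, Lamb1 and Lamc1 trimer was complete in 54 cells, and at 5 FPKM in 9. A gene missed in a cell at this depth cannot be told apart from one not transcribed there.

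Type IV collagen was sparse. The chains alpha-1 and alpha-2 build the common network, and their genes share a head-to-head promoter. Col4a1 was detected in 30 cells, Col4a2 in 22, and both in 5. Col4a2 was found in 16.7% of the Col4a1 cells and in 6.30% of the other cells, and these shares were not tested. Col4a1 differed by -0.05 (SE 0.20, limma adjusted p = 0.930), and its sign turned under several alternatives. Its Q1 mean was 1.07 in preparation 4 and 0.01 to 0.16 in the others. Of the 9 cells with markers of other types, 3 held Col4a1, including the highest value, 76.6 FPKM. In the other 291 cells Col4a1 was detected in 27 and reached 63.7 FPKM. Col4a2 was held by 1 of the 9 cells, at 46.2 FPKM, against at most 15.2 FPKM in the other 291 cells. The chains Col4a3, Col4a4 and Col4a5 build a network known from kidney. Col4a3 was detected in 45 cells (15%) at a mean of 6.76 FPKM, Col4a4 in 6 and Col4a5 in 4, and the 3 chains met in 2 cells. The highest values of these 3 chains, 333.0, 28.9 and 27.5 FPKM, lay in cells with markers of other types. In the other 291 cells they reached at most 207.3, 3.69 and 3.49 FPKM. Col4a6 was detected in 3 cells, all in Q4.

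Col4a3 was thus the most often detected collagen IV gene, without its partner chains in most cells. Its level was 0.24, 1.04, 2.93 and 0.98 in Q1, against 0.84, 0.04, 0.95 and 0.13 in Q4. The Q1 value of preparation 3 stood well above the rest, with 63.2% of its cells positive, against 11.8 to 22.7% in Q1 of the other preparations. The difference of 0.81 (SE 0.31, limma adjusted p = 0.182) did not pass, and it was higher in 3 of 4 preparations.

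Among the receptors, Itgb1 encodes the beta chain shared by the laminin and collagen integrins. Its level was 3.00, 3.54, 3.05 and 4.19 in Q1, against 2.91, 3.04, 2.97 and 3.62 in Q4. It was higher in Q1 in 4 of 4 preparations but by 0.08 to 0.57 only, and the groups overlapped. The difference was 0.31 (SE 0.38, limma adjusted p = 0.762) and the slope 0.11 (SE 0.12, limma adjusted p = 0.700). It was detected in 81.8 ± 11.1% of Q1 cells and 75.5 ± 18.3% of Q4 cells (SD, n = 4), and 64.2% in preparation 1 against 80.5 to 86.2% in the others. Itgb1 lies on chromosome 8 from 128685654 to 128733200.

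Itgb5, whose product pairs with alpha-V to bind vitronectin, was the only integrin gene tested that passed the threshold. Its level was 1.12, 2.15, 0.87 and 1.86 in Q1, against 0.34, 0.38, 0.48 and 0.19 in Q4, with no overlap. Q3 held 0.38, 0.52, 0.22 and 0.71, and Q2 held 0.53, 0.86, 1.40 and 1.87. The means were 1.50 ± 0.61 in Q1 and 0.35 ± 0.12 in Q4 (SD, n = 4). The difference was 1.15 (SE 0.28, limma adjusted p = 0.0180), higher in 4 of 4 preparations, and the slope was 0.42 per quartile (SE 0.086, limma adjusted p = 0.00452). Without preparation 2 or 4 the difference did not pass (limma adjusted p = 0.129 and 0.117). Without the block, with no filter and from the log2 of mean FPKM it did not pass either (limma adjusted p = 0.0681, 0.0686 and 0.221). The slope did not pass without preparation 4 (limma adjusted p = 0.059) or from the log2 of mean FPKM. The difference passed in 6 of 13 alternatives and the slope in 11 of 13. The Itga6 difference, which did not pass, was of similar size (1.18, limma adjusted p = 0.0544).

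Averaged over the preparations, Itgb5 was detected in a minority of the cells of every quartile. It was detected in 6.87 ± 2.17% of cells in Q4, 13.6 ± 5.69% in Q3, 29.9 ± 18.3% in Q2 and 35.6 ± 15.7% in Q1 (SD, n = 4), 68 cells in all. By preparation the shares were 23.5, 52.4, 21.1 and 45.5% in Q1, against 5.56, 10.0, 6.67 and 5.26% in Q4. Averaged over all cells it stood at 12.4 ± 3.70 FPKM in Q1 and 3.81 ± 4.31 FPKM in Q4 (SD, n = 4). The Q4 mean rests on 5 positive cells, whose median was 21.1 FPKM. Itgb5 lies on chromosome 16 from 33829665 to 33949338 (plus strand) and shares no exon with a gene on the other strand.

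The remaining beta chains were rarer. Itgb3, the beta chain of the vitronectin and platelet fibrinogen receptors, was detected in 44 cells (14.7%) and differed by 0.15 (limma adjusted p = 0.759), a sign that turned under median centring and without preparation 4. It was found in 0 of 67 cells of preparation 1, which allows a share of up to 4.48% by counting error alone and does not cover transcripts missed at the lower detection of that preparation, against 23.2, 12.7 and 20.0% in preparations 2, 3 and 4. Itgb4, the partner of alpha-6 in hemidesmosomes, was detected in 17 cells. Itgb2, the beta chain of leukocytes, was found in 7 cells, of which 5 were among the 8 cells with leukocyte markers. It reached 99.8 FPKM there and at most 1.50 FPKM elsewhere. Itgb7 and Itgb8 were found in 4 cells each and Itgb2l in 1.

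Itga6 had the highest level among the alpha chains, with a mean of 13.9 FPKM. Its level was 2.01, 3.31, 2.51 and 3.03 in Q1, against 1.13, 2.04, 1.07 and 1.92 in Q4. It was higher in Q1 in 4 of 4 preparations, by 0.89 to 1.44, and the groups overlapped only by the lowest Q1 value. The means were 2.72 ± 0.58 in Q1 and 1.54 ± 0.51 in Q4 (SD, n = 4). The difference of 1.18 (SE 0.34, limma adjusted p = 0.0544) lay just outside the threshold, and over the 13 alternatives its adjusted p ran from 0.0528 to 0.265. The slope was 0.32 (SE 0.11, limma adjusted p = 0.107), with means of 1.54 in Q4, 2.45 in Q3, 2.11 in Q2 and 2.72 in Q1, so that Q3 lay above Q2. Detection was 38.1 ± 14.5% in Q4, 61.6 ± 15.7% in Q3, 55.7 ± 17.7% in Q2 and 63.8 ± 11.2% in Q1 (SD, n = 4). Itga6 lies on chromosome 2 from 71745616 to 71858416 (plus strand).

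The other alpha chains tested were Itgae, Itga1, Itgav and Itga3, and none of the 4 passed. Itgae, whose product binds E-cadherin on epithelia when paired with beta-7, was detected in 74 cells (24.7%), at 23.9 to 25.6% in every preparation. It differed by -0.32 (limma adjusted p = 0.533). The germ cell kinase gene Haspin (listed as Gsg2) lies within Itgae on the other strand. Itgae was detected in 24.6% of the 65 Gsg2 cells and in 24.7% of the 235 other cells.

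Itga1, a collagen receptor chain, was detected in 55 cells (18.3%) at a mean of 2.44 FPKM, and differed by 0.52 (limma adjusted p = 0.193), higher in 4 of 4 preparations. Itgav, the alpha-V chain, was detected in 40 cells (13.3%) at 1.54 FPKM and differed by 0.38 (limma adjusted p = 0.281), also higher in 4 of 4. Both were found in 4.48% of the cells of preparation 1, against at least 21.2% of each other preparation for Itga1 and at least 12.2% for Itgav. Genes per cell were lowest in preparation 1 too, and their part in this was not tested. The gene Pelo lies within Itga1 on the same strand, and its part in the Itga1 values was not tested either. Itga3, a laminin receptor chain, was detected in 33 cells (11%) at 1.86 FPKM and differed by 0.01 (SE 0.19, limma adjusted p = 0.994), a sign that turned under median centring and other alternatives.

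Below the filter lay 12 alpha chains. Itga9 was detected in 20 cells and Itga7, a laminin receptor chain of muscle, in 17. The leukocyte chains Itgal, Itga4 and Itgam were detected in 12, 11 and 10 cells. Cells with leukocyte markers made up 2 of the Itgal cells, 5 of the Itga4 cells and 4 of the Itgam cells. Itga2b of platelets and the fibronectin receptor chain Itga5 were found in 10 cells each, Itga2 in 5, Itga11 in 4 and Itga8 in 3, all 3 in the same preparation.

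Pairs of chains were counted in the cells that held both at 1 FPKM or more. An alpha and a beta chain of any kind stood together in 219 of 300 cells, and 12 cells held no integrin chain. The pair Itga6 and Itgb1, a laminin receptor, was the commonest pair counted, in 136 cells (45.3%). It was found in 21 of 72 cells in Q4 (29.2%), 35 of 71 in Q3 (49.3%), 37 of 78 in Q2 (47.4%) and 43 of 79 in Q1 (54.4%). Itgb1 was detected in 81.4% of Itga6 cells and in 75.2% of the other cells.

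Other pairs were rarer. Itga1 and Itgb1 met in 46 cells, Itgav and Itgb1 in 34, and Itga3 and Itgb1 in 30. Itgav met Itgb5 in 14 cells, which is 35% of the Itgav cells and 20.6% of the Itgb5 cells, and Itgb3 in 8. Most Itgb5 cells thus did not reach 1 FPKM for Itgav, the known partner. Itga6 met Itgb4 in 11 cells, and Itgae met Itgb7 in 0. The count of cells with Itga6 and Itgb1 was 170 with any value above 0 and 82 at 5 FPKM.

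The rule also caught 4 rows that are no chain of these proteins. Col4a3bp encodes the ceramide transfer protein, and it was detected in 168 cells (56%). Its level was 2.15, 2.23, 1.30 and 2.73 in Q1, against 2.93, 2.02, 2.33 and 1.94 in Q4, with a difference of -0.20 (SE 0.38, limma adjusted p = 0.852) and a slope of -0.12 (SE 0.12, limma adjusted p = 0.655). Itgb3bp, which encodes a centromere protein, was detected in 115 cells (38.3%) at 3.51 FPKM and differed by -0.29 (limma adjusted p = 0.645). Itgb1bp1, which binds the tail of integrin beta-1, was detected in 98 cells (32.7%) at 8.86 FPKM and differed by -0.14 (limma adjusted p = 0.886). Itgb1bp2, which encodes an integrin-binding protein of muscle, was found in 5 cells.

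Genes that work beside integrins were counted from 6 lists. Of 26 adaptors and kinases that tie integrins to actin, such as talin, kindlin, vinculin and focal adhesion kinase, 20 were tested. Of these 0 passed in either comparison, where 3.25% and 4.51% of all genes did, and their median difference was 0.21, against 0.10 for all genes. Of 8 membrane proteins that associate with integrins, all were tested and 1 was higher in Q1, against 2.72% of all genes. This was Cd9, a tetraspanin and the antigen of the sort, with a difference of 1.26 (SE 0.31, limma adjusted p = 0.0204) and a slope of 0.41 (limma adjusted p = 0.0115). Neither passed without preparation 4 (limma adjusted p = 0.212 and 0.181), without the block (0.174 and 0.0921) or from the log2 of mean FPKM. The difference passed in 8 of 13 alternatives and the slope in 9 of 13. Along the quartiles 2 of the 8 rose, against 3.77% of all genes. The tetraspanin Cd82 rose along the quartiles as well, by 0.32 per quartile (SE 0.080, limma adjusted p = 0.0190), a call that held in 4 of 12 alternatives. It was lost without preparation 2, 3 or 4 (0.223, 0.0676 and 0.0903) and without the block (0.0834), and without preparation 2 the slope was 0.19.

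Of 25 other matrix ligands 9 were tested, and 1 was higher in Q1, against 2.72% of all genes. This was Smoc2, a secreted calcium-binding protein of basement membranes. Its level averaged 3.24 ± 0.38 over the preparations in Q1, against 1.60 ± 0.80 in Q4 (SD, n = 4). The difference was 1.64 (SE 0.37, limma adjusted p = 0.0124) and the slope 0.57 (limma adjusted p = 0.00407). Without preparation 2, 3 or 4 the difference did not pass (limma adjusted p = 0.0629, 0.0506 and 0.18). Without the block and from the log2 of mean FPKM it did not pass either (limma adjusted p = 0.1 and 0.167). The slope did not pass without preparation 4 (limma adjusted p = 0.0827) or from the log2 of mean FPKM. The difference passed in 8 of 13 alternatives and the slope in 11 of 13. Along the quartiles 1 of the 9 rose and 1 fell, against 3.77% and 0.74% of all genes. Spp1, the integrin ligand osteopontin, fell along the quartiles towards Q1 by 0.35 per quartile (SE 0.10, limma adjusted p = 0.0442), a call that held in 4 of 12 alternatives. It was lost without preparation 1, 3 or 4 (0.0507, 0.127 and 0.413) and without the block (0.217), and without preparation 4 the slope was -0.15. In the remaining lists 0 genes passed in either comparison: 2 were tested of 6 other laminin and collagen receptors, 8 of 13 enzymes and chaperones that make collagen and laminin, and 8 of 14 proteases and inhibitors. At the shares of all genes given above, lists of this size can hold no call.

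Several measures moved with brightness beside these genes. Genes detected per cell were higher in Q1 than in Q4, as given above, and with that number as a covariate Nid1 and Nid2 still passed (differences 2.95 and 2.18, limma adjusted p = 0.00215 and 0.0161), while Itgb5 did not (1.36, limma adjusted p = 0.051). The median over genes, taken in each of the 16 means, lay on average 0.18 higher in Q1 than in Q4. After each of the 16 means was centred on it, Nid1 still passed (2.72, limma adjusted p = 0.000117), while Nid2 (1.41, 0.0564) and Itgb5 (0.98, 0.0647) did not. The median difference of all genes tested was 0.10 before centring and -0.08 after it, and the median slope 0.03 and -0.02. Centring thus reversed the sign of both medians, and did not bring them to 0. Over all genes, centring changed the calls to 145 higher and 106 lower, against 283 higher and 55 lower without it. Along the quartiles the calls were 218 rising and 183 falling with centring, against 393 and 77 without. Without the 9 cells with markers of other types the differences were 3.03 for Nid1, 1.63 for Nid2 and 1.15 for Itgb5 (limma adjusted p = 8.98e-05, 0.0295 and 0.0182). The summed level of the 7 endothelial markers, of which Egfl7 was found in 30.0% and Flt1 in 21.7% of cells and Esam in 0, ran from 2.70 to 3.45 in Q1 and from 0.87 to 3.64 in Q4. That of the 8 Sertoli markers ran from 0.15 to 0.73 in Q1 and from 1.03 to 1.42 in Q4, with Cldn11 listed at 0 in every cell. The leukocyte sum ran from 2.20 to 5.18 in Q1 and from 1.69 to 4.97 in Q4. For the myoid markers it was 0.00 to 0.77 in Q1 and 0.00 to 3.51 in Q4. For the fibroblast markers it was 0.30 to 1.07 and 0.57 to 1.89, and for the Leydig markers 0.19 to 0.58 and 0.02 to 0.35. Their part in these results was not tested.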

How the data were processed

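The authors' deposited table holds FPKM values for 300 cells. The unit is not in its header. It was inferred from Cufflinks in the submitters' processing notes, which also list TopHat, FastQC and Picard and the builds mm10 and GRCm38, without versions. 0 columns lacked a sample. For each gene, log2(FPKM + 1) was averaged over cells per preparation and quartile, giving 16 means. The number in the titles was read as the preparation, which the labels do not state. The 10411 genes that reached 1 FPKM in 30 or more cells went into limma 3.58.1 (R 4.3.3), with trended, robust variances, quartile as a factor or a slope, and preparation as a block. Adjusted p-values are Benjamini-Hochberg over all tested genes, threshold 0.05. 

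Quartiles were paired by this number, since by that reading they share animals. Same-preparation deviations from quartile means correlated at 0.0112 to 0.360 (median 0.129, 24 pairs), against a median of -0.136 between preparations. Taking out the quartile mean pushes the values between preparations below 0 by construction, so their sign says nothing about the pairing. Cells were not counted as replicates, and no raw counts were used, so intervals from depth were not computed.

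All members but 1, which is not reported here, are accounted for by name. Members past the threshold, and the 5 of highest mean level, are given in every preparation, and genes of the other lists are named where they passed. Members and lists were chosen with earlier results of these data known. Alternatives changed the block, pseudocount (0.1, 10), filter (none, 60 cells), averaging, centring, a covariate and the cells or preparations used. Positions and overlaps come from GENCODE vM21 (GRCm38), promoters from RefSeq (GRCm38.p6). Of the 51 members, 16 share exon bases with a gene on the other strand and 3 with a gene on the same strand. Itgb1bp1 (with Asap2 and Cpsf3) and Itgb3bp (with Pgm1) are among the 16. The part of such overlaps in the values was not tested.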

Additional observations from a re-analysis of the deposited data

Results flagged for a closer look

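Of 84 sets of 4 preparation means (21 members in 4 quartiles), 6 held a mean that stood apart by Dixon's 95% criterion, and chance flags about 1 in 20. Nid1 in Q3 was 1.96 in preparation 4 and 0.78 to 0.88 in the others. Col4a1 in Q1 was 1.07 in preparation 4 and 0.01 to 0.16 in the others. Itgav in Q3 was 0.41 in preparation 3 and 0.01 to 0.02 in the others. Col4a3 in Q2 was 0.34 in preparation 1 and 0.57 to 0.62 in the others. Lamb1 in Q3 was 1.93 in preparation 2 and 2.66 to 2.78 in the others. Lamc1 in Q2 was 0.44 in preparation 3 and 1.73 to 1.98 in the others. The causes were not tested.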

How the results depend on the processing

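Nid1 passed in both comparisons under all 13 alternatives, and the Nid2 slope did too. The Nid2 and Itgb5 differences between Q1 and Q4 each passed in 6 of 13, and the Itgb5 slope in 11 of 13. Itga6 passed in 0 of 13 in either comparison. The count of members that differed between Q1 and Q4 was 3, and 1 without the replicate block, 1 with no expression filter, 1 from the log2 of mean FPKM, and 1 to 3 with a preparation left out. Along the quartiles it was 2 to 4 throughout. Over all genes, 338 differed between Q1 and Q4, and 99 without the replicate block, 177 with no filter, 80 from the log2 of mean FPKM, 135 with the covariate, and 137 to 270 with a preparation left out. Along the quartiles 470 passed, and 177, 274, 113, 197 and 176 to 354 under the same settings. The causes were not tested.

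Signs turned for 7 members that passed in no comparison. For Q1 minus Q4, Agrn turned with the covariate (0.053), Itgb1bp1 with the covariate (0.055) and Itgb3 with centring (-0.024). Col4a1 turned with pseudocount 10 (0.00047), with the covariate (0.026) and without the cells with markers of other types (0.077). Itga3 was -0.0097, -0.12, -0.17, -0.25 and -0.0014, in the order pseudocount 10, log2 of mean, centring, covariate and without those cells. Lama3 was -0.0036, -0.18, -0.078 and -0.016 with pseudocount 10, centring, the covariate and without those cells. With a preparation left out, Agrn ran from -0.44 to 0.095, Col4a1 from -0.18 to 0.069, Col4a3bp from -0.53 to 0.072, Itga3 from -0.25 to 0.11, Itgb1bp1 from -0.34 to 0.17, Itgb3 from -0.034 to 0.32 and Lama3 from -0.037 to 0.053. For the slope these were Agrn (covariate 0.039), Itga3 (settings as above -0.0020, -0.022, -0.057, -0.069 and -0.0054) and Lama3 (pseudocount 0.1 0.0065, log2 of mean 0.0029). With a preparation left out the slope ran from -0.14 to 0.062 for Agrn, from -0.063 to 0.0092 for Col4a1, from -0.064 to 0.035 for Itga3, from -0.14 to 0.021 for Itgb1bp1 and from -0.017 to 0.011 for Lama3.

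Most members are detected in a minority of cells, and depth is unknown, so a missing chain in a cell may be a missed one. Each mean rests on 15 to 22 cells.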
